A study of Mus musculus with 7 samples.

Results

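Meis1, Mecom, Hlf, Sox4 and Cd34 are 5 genes of haematopoietic stem and early progenitor cells, and histone H3 lysine 4 methylation at them was followed in mouse bone marrow monocyte progenitors. The measurements are the distinct peak intervals that overlap one of these genes or lie within 100 kb of either gene end, taken from 5 peak lists. They number 165 of the 105978 intervals in the 5 lists, 163 of them from 4 H3K4me2 libraries and 2 from 1 H3K4me3 library. Merged over the H3K4me2 lists, the intervals form 55 regions, of which 13 belong to Meis1, 16 to Mecom, 8 to Hlf, 11 to Sox4 and 7 to Cd34.

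The series concerns an enhancer 165 kb from Zeb2 and how it is used in common monocyte progenitors (cMoPs), the bone marrow cells committed to making monocytes. The groups are H3K4me2 in cMoPs of the enhancer genotype labelled DE (2 libraries), H3K4me2 in WT cMoPs (2 libraries) and H3K4me3 in WT cMoPs (1 library). The labels do not expand "DE". They give neither the strain and age of the mice nor whether replicates came from separate animals, so the spread between replicates may be technical. The assay was CUTAC, a form of CUT&Tag in which an antibody tethers the Tn5 transposase to marked nucleosomes and tagmentation without added salt favours open DNA beside them. The H3K4me2 libraries all carry the batch label 2 and the H3K4me3 library the batch label 1.

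Dimethylation of H3K4 lies at promoters and enhancers, whereas trimethylation is concentrated at the start sites of active genes. Meis1 encodes a TALE homeodomain protein that binds DNA with PBX and HOX partners and sustains stem cells. Mecom encodes the zinc finger protein EVI1 and, from a far upstream start, a longer form with a PR domain. Hlf is a bZIP factor of the PAR family that marks stem cells, and Sox4 is an HMG box factor of early progenitors. Cd34 encodes a sialomucin of the cell surface that is used to sort progenitors. Meis1, Mecom and Hlf are known for expression before lineage commitment and lower expression after it. RNA was not measured in these libraries.

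All coordinates are mm10. Meis1 (gene ID 17268) lies at chr11:18880428-19019651, Hlf (217082) at chr11:90336535-90390917, Mecom (14013) at chr3:29951296-30509759, Sox4 (20677) at chr13:28948919-28953699 and Cd34 (12490) at chr1:194938821-194961292. Cd34 is on the plus strand and the others are on the minus strand. Regions are named by the distance in bp from the start site to their nearest edge, minus for upstream. The annotation used gives gene bounds and start sites, and whether a region inside a gene is exonic or intronic was not looked up.

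The 4 promoter windows that H3K4me2 intervals touched in 3 or 4 lists are printed here, since the marks at the start sites described below overlap them in whole or in part. Each runs from 250 bases before to 50 bases after the start, 5′ to 3′ on the strand of the gene, as RefSeq gives it for GRCm38.p6 (mm10). They are chr11:19018920-19019219 (minus strand) for Meis1, chr11:90390868-90391167 (minus strand) for Hlf, chr13:28953650-28953949 (minus strand) for Sox4 and chr1:194938571-194938870 (plus strand) for Cd34. Capitals mark 3 forms of the E-box, which are CACCTG, then CAGCTG, and last the form CAGATG, each searched on both strands. E-boxes are the motifs of E proteins, and CACCTG that of ZEB factors too. The windows of Meis1 and Cd34 hold none of the 3 forms.
Meis1: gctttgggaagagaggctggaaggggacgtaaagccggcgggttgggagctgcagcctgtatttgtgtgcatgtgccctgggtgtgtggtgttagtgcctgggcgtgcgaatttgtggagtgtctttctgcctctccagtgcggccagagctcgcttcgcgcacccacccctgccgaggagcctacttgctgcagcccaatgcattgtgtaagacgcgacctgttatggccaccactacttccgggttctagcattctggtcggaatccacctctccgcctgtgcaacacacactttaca
Hlf: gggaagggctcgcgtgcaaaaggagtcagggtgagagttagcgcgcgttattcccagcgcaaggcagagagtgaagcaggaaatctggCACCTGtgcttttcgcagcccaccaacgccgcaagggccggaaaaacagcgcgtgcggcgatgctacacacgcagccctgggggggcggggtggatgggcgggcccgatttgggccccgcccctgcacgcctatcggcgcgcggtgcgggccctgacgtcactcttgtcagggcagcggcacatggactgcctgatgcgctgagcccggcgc
Sox4: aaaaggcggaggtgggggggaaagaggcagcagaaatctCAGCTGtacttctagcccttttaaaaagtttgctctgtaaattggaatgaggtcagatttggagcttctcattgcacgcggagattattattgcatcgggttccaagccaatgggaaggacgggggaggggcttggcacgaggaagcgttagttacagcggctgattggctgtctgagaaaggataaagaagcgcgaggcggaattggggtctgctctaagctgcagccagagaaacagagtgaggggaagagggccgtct
Cd34: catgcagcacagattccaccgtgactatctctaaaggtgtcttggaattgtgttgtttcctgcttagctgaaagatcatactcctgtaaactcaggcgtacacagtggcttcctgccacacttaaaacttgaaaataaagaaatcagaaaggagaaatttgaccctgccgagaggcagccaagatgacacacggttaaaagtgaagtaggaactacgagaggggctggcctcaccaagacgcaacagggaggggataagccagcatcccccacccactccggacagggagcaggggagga

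The CACCTG of Hlf begins at position −162 from the start, and 20.5% of 31365 RefSeq windows of this length hold that motif. The CAGCTG of Sox4 begins at −211 and occurs in 16.3% of windows. Mecom has 2 such windows, of which the upstream one has a CAGATG match at −57 (17.2% of windows) and the EVI1 one no E-box. An E-box of these forms was thus in 3 of 6 member windows, against 44.5% of all windows. Of the other motifs searched on both strands, CCAAT was found in the Sox4 window at −171, −104, −47 and −8, in the Meis1 window at −54 and in the EVI1 window at −207 (37.3% of windows). TGTGGT was found at Meis1 alone, at −166 (16.7% of windows), and TGACAG in the EVI1 window alone, at −86 (19.04% of windows). None of the 6 windows held TTACGTA (0.462% of windows), the GATA form AGATAA (11.2% of windows) or the TATA box TATAAA (13.6% of windows). The Hlf window had 30 CpG and 67.3% GC, against medians of 7 CpG and 53% GC over all windows.

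The lists held 21968 and 17079 distinct peaks in DE, 32354 and 28152 in WT, and 6425 for H3K4me3. Read depth is unknown, since the files are peak lists without counts. The strength of a peak is given as the −log10 q of the authors' caller, which depends on depth and is given per library as a description. The place of a peak is its position in its own list by −log10 p, from 0% (strongest) to 100% (weakest). Places in lists of unequal length show no change between genotypes, which were compared on a common set of regions further on. The track lines of both DE lists end in DE-2, with the first letter C for DE replicate 1 and D for DE replicate 2. What DE-2 stands for there is not given, and each list was assigned as the record of the series has it. In cells pooled for one assay, fewer marked cells and less mark per cell cannot be told apart.

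The sorted cells were checked against marker genes with an H3K4me2 interval in the gene or within 1 kb. Of 10 cMoP and monocyte genes, 9 and 9 were called in DE and 10 and 10 in WT, and 7 carried H3K4me3. Of all 20665 protein-coding autosomal genes, 11177 and 10028 were called in DE and 12354 and 12159 in WT, and 4984 carried H3K4me3. The monocyte gene missing from both DE lists was Cx3cr1, the fractalkine receptor. Of the other markers, the neutrophil gene S100a8 was called in both DE lists and neither WT list, and Batf3, a factor of dendritic cells, in both WT lists and neither DE list. Among all 20665 genes, 40 were called in both DE lists alone and 757 in both WT lists alone. Of 5 stem cell markers, 1 and 2 were called in DE and 1 and 2 in WT, with Kit in all 4 lists, Procr in 2, and no interval at Slamf1 and Ly6a in any. Of 9 neutrophil genes, 4 and 5 were called in DE and 4 and 3 in WT, and of 6 dendritic cell genes, 3 and 2 in DE and 4 and 4 in WT. Of 6 B cell genes, 3 and 1 were called in DE and 1 and 1 in WT, and of 5 T cell genes, 2 and 0 in DE and 2 and 1 in WT. Of 5 autosomal erythroid and megakaryocyte genes, 2 and 1 were called in DE and 2 and 3 in WT. One of 4 mast cell and basophil genes (Gata2) was called in every H3K4me2 list, and none of 4 NK cell genes in any. The part of other cell types in the results was not tested.

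H3K4me2 was present at all 5 progenitor genes in both WT libraries, and none of the 5 carried H3K4me3. Meis1, Mecom, Hlf and Sox4 had an H3K4me2 interval in the gene or within 1 kb in all 4 lists, as did 45.5% of 20665 protein-coding autosomal genes. Cd34 had one in 3 lists and none in DE replicate 2. An H3K4me3 interval in the gene or within 1 kb was found at 0 of 5 members, against 24.1% of all genes. The strongest marks, at Meis1 and Mecom, lay within the strongest 1.38% of peaks of every H3K4me2 list.

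**Figure D1:**
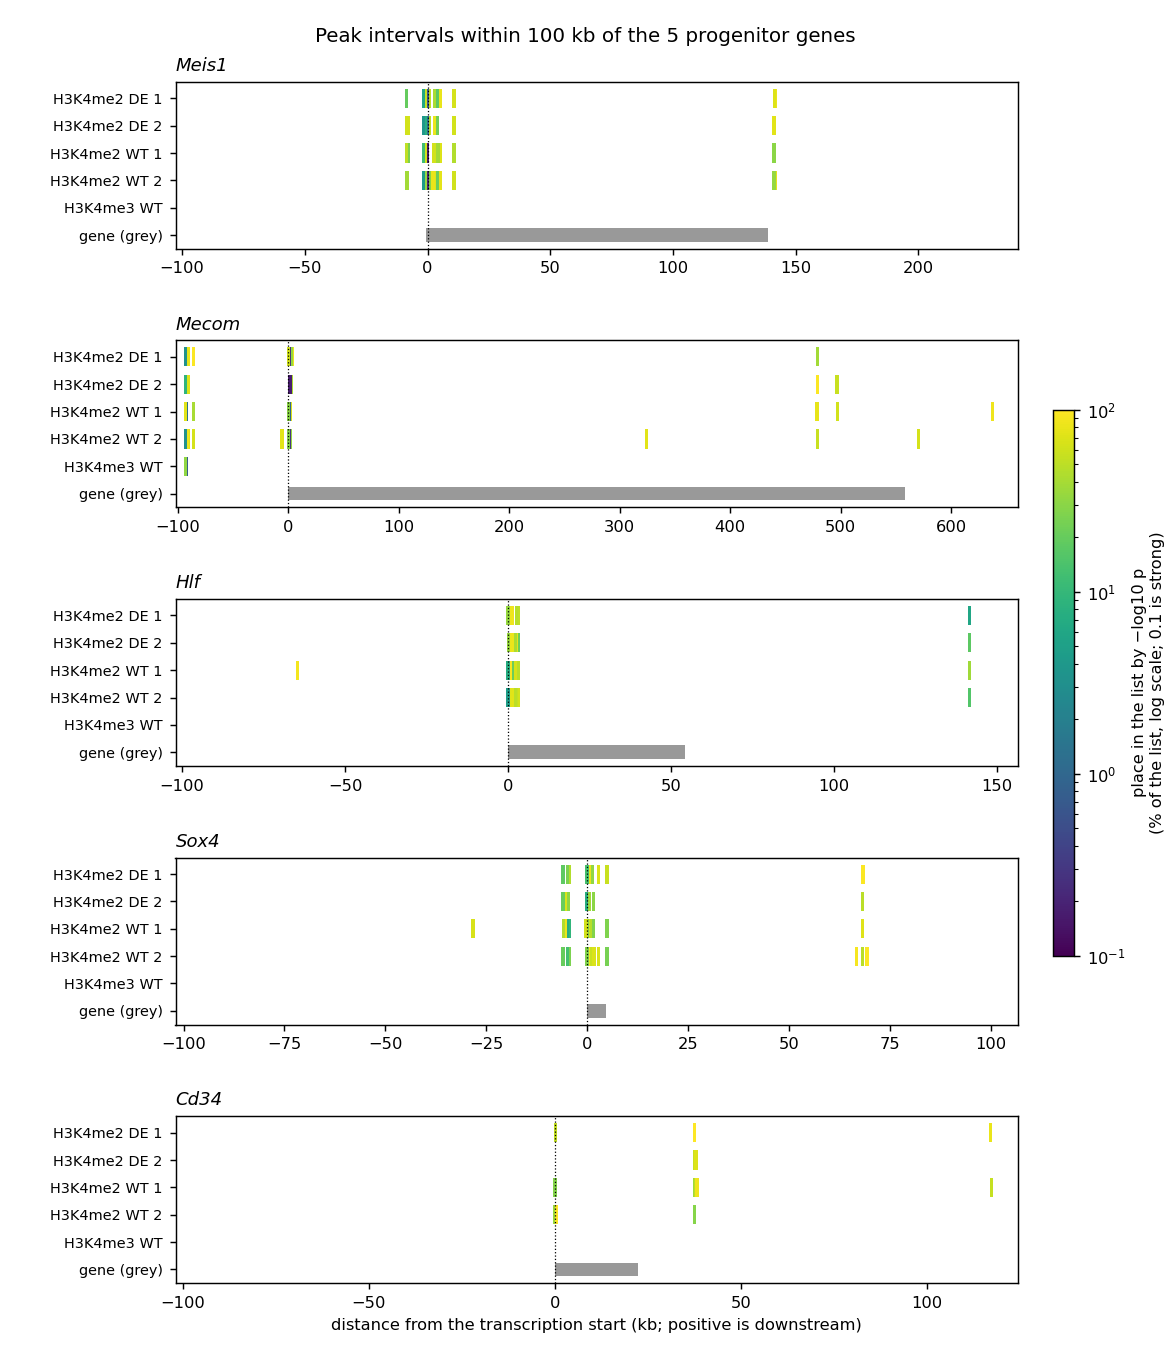
Peak intervals at the 5 genes and 100 kb on each side, one row per library with DE above WT, against the distance from the transcription start in kb (positive is downstream); colour gives the place in the list on a log scale, marks have a minimum drawn width and the grey bar is the gene. Most intervals of Meis1, Hlf and Sox4 lie near the start, and the 2 H3K4me3 intervals lie at −92.5 and −92.8 kb from the start of Mecom.

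At Meis1, 8 of the 13 regions were called in all 4 lists (61.5%), against 5 of 11 at Sox4, 4 of 8 at Hlf, 3 of 16 at Mecom and 1 of 7 at Cd34. The region over its start (chr11:19018870-19019285) reached a −log10 q of 55.7 and 33.9 in DE, and 75.9 and 114 in WT. Its place was 0.646% and 1.38% of the list in DE, and 0.161% and 0.217% in WT, and its fold over the local background was 14.4 and 9.56 in DE, and 24.1 and 22.9 in WT. It was the top region of the locus by −log10 q in every list, and both DE libraries were weaker than both WT libraries on each of these scales. Its summits fell at −58 and −60 bp from the start in DE, and at −49 and −59 bp in WT, inside the window printed above.

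Another strong Meis1 region lay at −1426 (chr11:19020395-19020724), with a −log10 q of 24.3 and 23.9 in DE, and 16.6 and 47.6 in WT. DE lay between the WT values there. The region at −687 (chr11:19019656-19020033) had 4.78 and 18.1 in DE, and 12.1 and 12.96 in WT, so the DE replicates stood on either side of both WT values. Inside the gene, regions at +2481 (chr11:19015776-19016488), +3984 (chr11:19014663-19014985) and +10563 (chr11:19008058-19008406) were called in all 4 lists. The noncoding RNA gene Gm16141 overlaps each of them. The one at +3984 was the strongest of the 3 in every list, with 14.1 and 9.73 in DE, and 6.79 and 20.3 in WT. Between +10563 and the far end of the gene no interval was called in any list.

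At Mecom the strongest mark lay beside the upstream start and not on it. A region 835 bp downstream of that start (chr3:30507637-30508924, in the gene) had a −log10 q of 68.3 and 60.5 in DE, and 46.4 and 108.9 in WT. Its place was 0.273% and 0.170% in DE, and 0.940% and 0.291% in WT, so in both DE lists it was ahead of its place in WT. It was the strongest of all 55 regions in both DE lists, and its summits fell at +1244 and +1246 bp in DE, and +1246 and +1261 bp in WT. The promoter window of the upstream start (chr3:30509710-30510009) was touched in no list. A weaker region at +478587 (chr3:30030364-30031172) was called in all 4 lists, with 7.25 and 1.27 in DE, and 2.82 and 6.79 in WT. The window of the EVI1 start (chr3:30013155-30013454) was touched in DE replicate 2 alone, at 4.28, and 9 of the 16 Mecom regions were called in 1 list only.

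Hlf carried H3K4me2 over its start (chr11:90390743-90391069) in every list, at a −log10 q of 8.45 and 6.79 in DE, and 21.7 and 45.7 in WT. Its place was 33.8% and 34.6% in DE, and 7.21% and 4.68% in WT, so it was a mid-list peak in DE and among the strongest 10% of peaks in WT. The summits stayed near the start, at −36 and −22 bp in DE, and 6 and −16 bp in WT. Downstream, the region at +2910 (chr11:90387605-90388007) had 5.33 and 10.04 in DE, and 5.34 and 5.46 in WT. The region at +1095 (chr11:90389610-90389822) had 2.21 and 2.06 in DE, and 11.5 and 4.06 in WT. A further region at +590 (chr11:90390054-90390327) was called in both WT libraries, at 1.4998 and 4.06, and in neither DE library, and these are weak calls placed at 94.1% and 74.0% of the WT lists.

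Sox4, a gene of 1 exon, was marked over its start and along its body. The start region (chr13:28953606-28953989) had a −log10 q of 16.5 and 18.2 in DE, and 9.07 and 15.96 in WT. Its place was 13.1% and 7.61% in DE, and 28.9% and 27.3% in WT, and both DE places were ahead of both WT places. Summits lay at −58 and −53 bp in DE, and −51 and −44 bp in WT. A broad region from +228 (chr13:28951805-28953471, 1667 bp when merged over the 4 lists) lay within the gene, with 8.74 and 7.75 in DE, and 9.43 and 6.33 in WT. Upstream, a region at −4192 (chr13:28957891-28958814) ran the other way from the start, with 10.8 and 7.61 in DE, and 21.97 and 28.1 in WT. The noncoding RNA gene Gm46405 overlaps the start region, the broad region and the one at −4192.

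Cd34 had the fewest and weakest marks. Its start region (chr1:194938760-194939048) had a −log10 q of 4.90 in DE replicate 1, no call in DE replicate 2, and 9.29 and 12.2 in WT. Its place was 52.7% in DE replicate 1, and 27.4% and 35.6% in WT. The one region of the locus called in all 4 lists was at +37419 (chr1:194976240-194976536), beyond the gene and within 1 kb of a start of Gm16897. It had 1.23 and 3.84 in DE, and 6.87 and 15.2 in WT, and both DE values lay below both WT values.

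**Figure D2:**
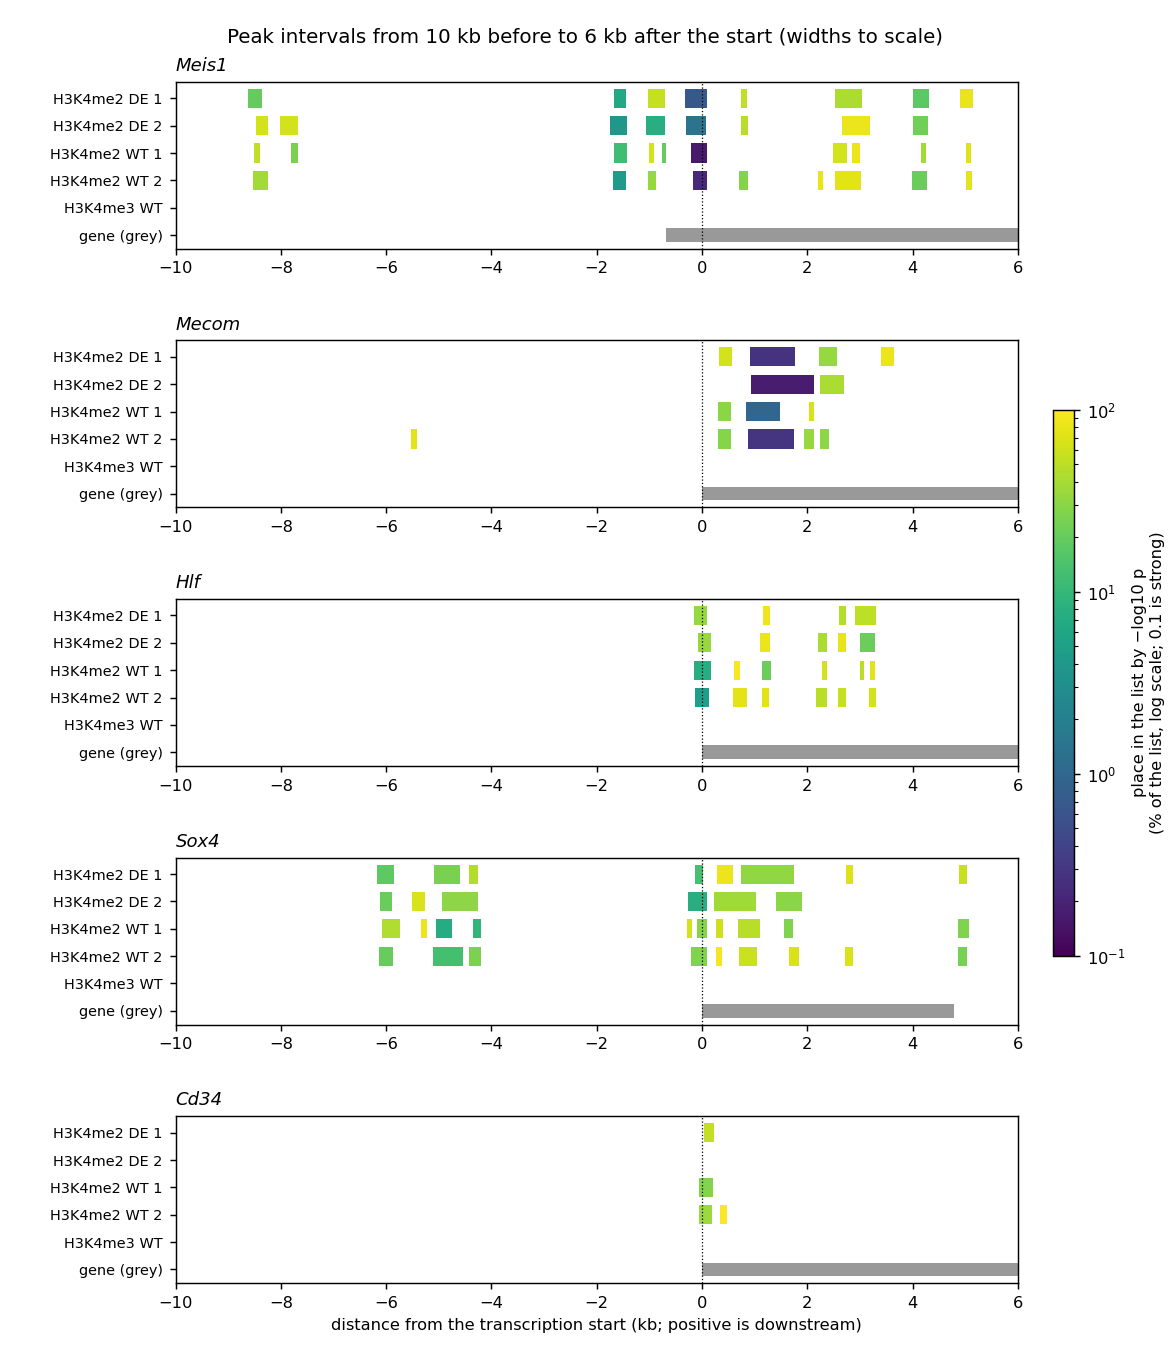
Peak intervals from 10 kb before to 6 kb after the start of each gene, widths to scale, with DE above WT and the place in the list as colour on a log scale. Dark marks sit on the start of Meis1 in all 4 H3K4me2 rows and 835 bp into Mecom, the start of Hlf is darker in WT than in DE, and that of Sox4 is darker in DE than in WT.

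By promoter window, Meis1, Hlf and Sox4 were touched in all 4 H3K4me2 lists, as were 23.6% of the 31365 RefSeq windows. No member window was touched by H3K4me3, against 13.5% of all windows. The intervals covered 100% and 100% of the Meis1 window in DE, and 84.7% and 75.7% in WT. The Sox4 window was covered over 46.7% and 100% in DE, and 65.0% and 84.3% in WT, and the Hlf window over 67.3% and 40.7% in DE, and 65.0% and 60.7% in WT. The Cd34 window was covered least, over 4.33% and 0% in DE, and 37% and 35.7% in WT. The shortest interval of a list was 109 and 109 bp in DE, and 74 and 91 bp in WT, so widths are set in part by the caller in each library.

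The number of intervals at the 5 loci was lower in DE than in WT, and so was the length of the DE lists. The 5 loci held 37 and 31 H3K4me2 intervals in DE, and 48 and 47 in WT, or 34 ± 4.24 in DE and 47.5 ± 0.707 in WT (SD, n = 2 each). The ratio of the geometric means was 0.713, with an exact two-sided permutation p of 0.333, the smallest that 2 libraries against 2 can give. The lists themselves had a ratio of 0.642, and the median over protein-coding autosomal genes was 0.707. Such a ratio needs intervals in all 4 lists, which 15748 of the 20665 genes had. Per 10000 peaks of the list, the loci held 16.8 and 18.2 intervals in DE, and 14.8 and 16.7 in WT. When every list was limited to the length of the shortest, the ratio was 1.09, above 1.

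The intervals covered 12033 and 11015 bp of the 5 loci in DE, and 9660 and 12289 bp in WT, a ratio of 1.06 (exact two-sided permutation p = 1). That ratio was 0.937 without WT replicate 1. By gene, the ratio of interval counts was 0.840 at Meis1 (11 and 10 in DE, 13 and 12 in WT), 0.732 at Hlf (5 and 6 in DE, 8 and 7 in WT) and 0.661 at Sox4 (9 and 7 in DE, 12 and 12 in WT). It was 0.645 at Mecom (9 and 6 in DE, 10 and 13 in WT) and 0.632 at Cd34 (3 and 2 in DE, 5 and 3 in WT). Both DE counts lay below both WT counts at 4 of the 5 genes, the exception being Cd34, and at 45.2% of all genes. Both lay above at 0 of 5, and at 0.547% of all genes.

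**Figure D3:**
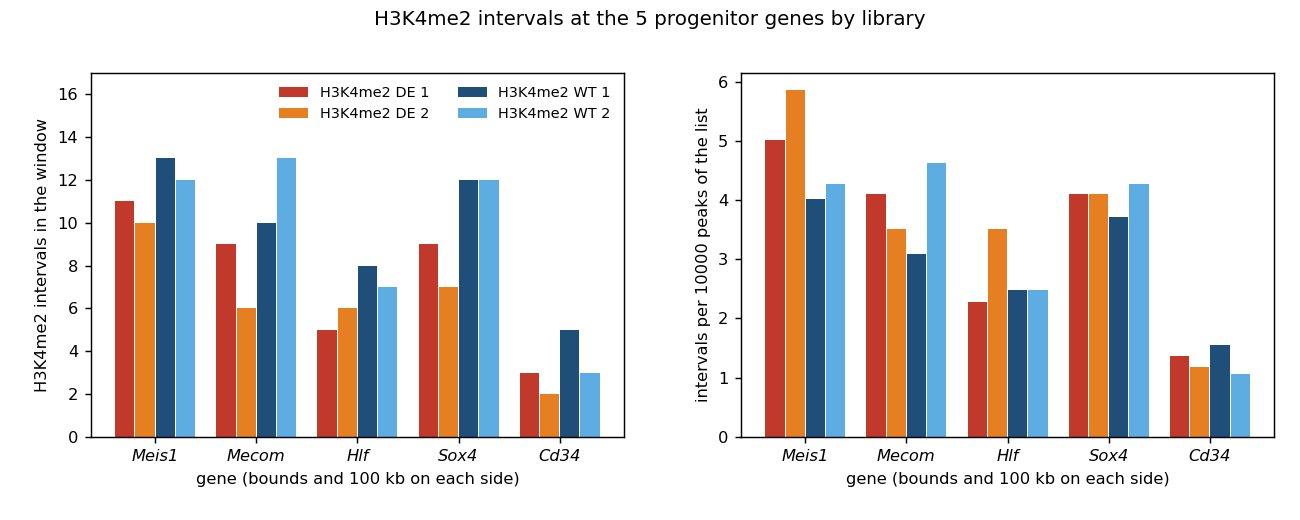
H3K4me2 intervals in the gene and 100 kb on each side, one bar per library with DE left of WT, as counts (left panel) and per 10000 peaks of the library's list (right panel). The DE bars are lower than or level with the WT bars in the left panel, as at the 5 loci together (37 and 31 in DE, 48 and 47 in WT), and of mixed order in the right one.

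Over the 55 regions, 21 (38.2%) were called in all 4 lists, 10 in 3, 6 in 2 and 18 (32.7%) in 1. Of all 39395 autosomal regions, 30.2% were called in all 4 and 42.5% in 1. Only the Hlf region at +590 was called in both WT libraries and neither DE library (1 of 55, 1.82%), a pattern that 8.77% of all regions had. None was called in both DE and neither WT library, against 1.1% of all regions. The count of WT-only regions was 0 with lists of equal length and 7 when peaks needed a −log10 q of at least 5. Over the 3 lists that remain when a library is left out, where a genotype is then 1 library, it was 10 without WT replicate 1, 7 without WT replicate 2, 6 without DE replicate 1 and 3 without DE replicate 2. With lists of equal length 2 DE-only regions appeared, and without WT replicate 2 there were 4. The 29 regions in a gene or within 1 kb of it held 13 of the 21 constant ones.

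Lists of unequal length were put on one scale by ranking, in each library, the 11891 autosomal regions called in all 4 lists by their −log10 p. The resulting standing runs from 0 (weakest) to 100 (strongest). The median standing of the 21 members was 45.8 and 58.5 in DE, and 38.4 and 40.2 in WT. That is 52.2 ± 8.98 in DE and 39.3 ± 1.26 in WT (SD, n = 2 each), a difference of 12.8 (exact two-sided permutation p = 0.333). Without DE replicate 2 the difference was −5.39, and with presence by 50% cover of a region it was −1.55, so its direction differed between settings.

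Single regions differed in both directions. Both DE standings lay below both WT standings at 5 of the 21 regions (23.8%), against 19.3% of all shared regions. Both lay above at 7 (33.3%), against 21% of all. The difference at the Hlf start was −37.4, from standings of 43.5 and 52.8 in DE, and 81.9 and 89.1 in WT. The Sox4 start differed by 41.3 in the other direction, from standings of 76.3 and 89.2 in DE, and 40.3 and 42.6 in WT. At the Sox4 region at −4192 the standings were 56.6 and 57.6 in DE, and 82.3 and 71.4 in WT, so the start and this region differed in opposite directions. The next region upstream called in all 4 lists, Sox4 −5734, differed in the direction of the start. It stood at 67.4 and 71.1 in DE, and at 23.4 and 55.7 in WT.

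The top of the scale was held by Meis1 and Mecom in both genotypes. The Meis1 start stood at 98.8 and 98.1 in DE, and at 99.6 and 99.5 in WT, and Mecom +835 at 99.5 and 99.8 in DE, and at 97.6 and 99.3 in WT. Those 2 regions differed by −1.11 and 1.18 points, at the ceiling of the scale. The other regions with both DE values above both WT values were Meis1 +3984, Hlf +2910, Sox4 +228, Sox4 −5734 and the region at Hlf +141349. Of these, Sox4 −5734 lies within 1 kb of starts of Gm46405 and Gm52067, and Hlf +141349 within 1 kb of a start of Mmd. The other regions with both DE values below both WT values were Meis1 +141035, within 1 kb of a start of 8430419K02Rik, and Cd34 +37419, within 1 kb of that of Gm16897.

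**Figure D4:**
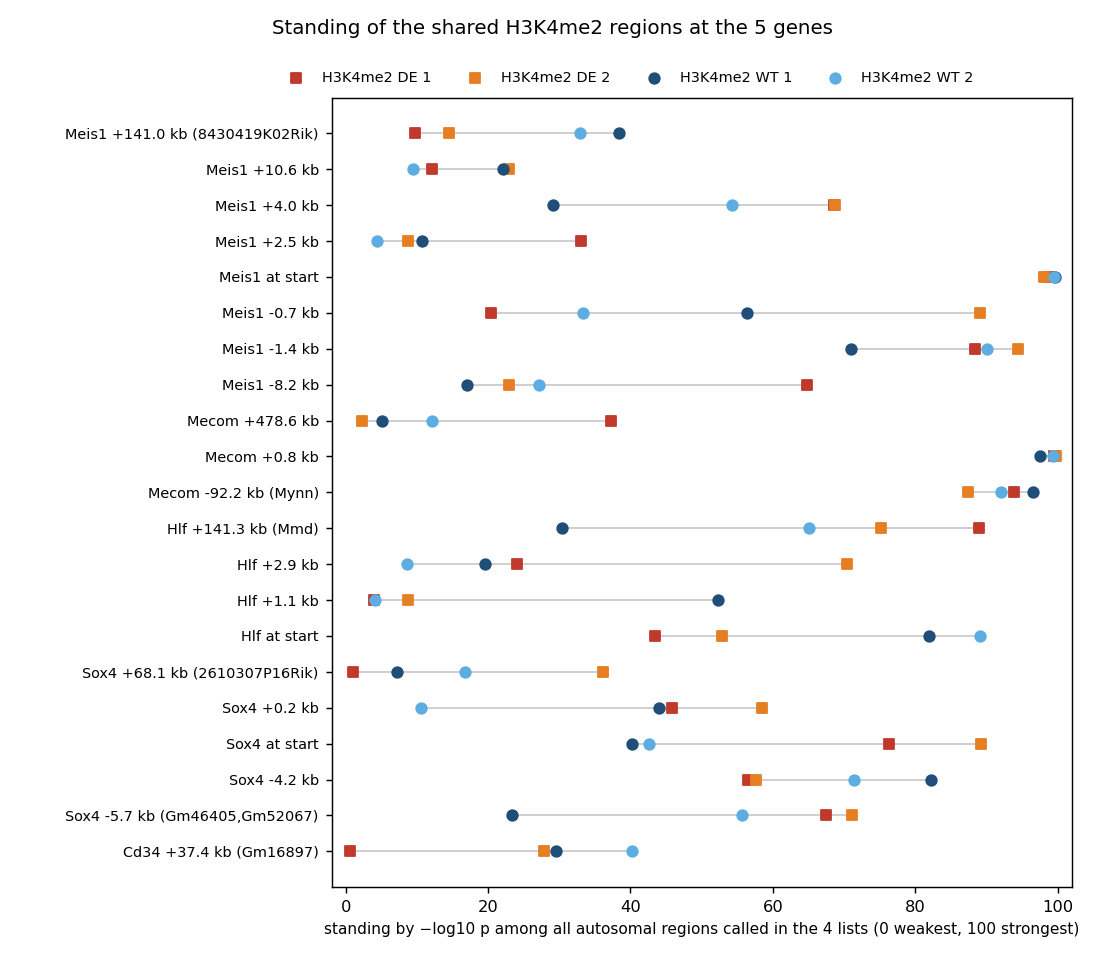
Standing of the 21 member regions called in all 4 H3K4me2 lists, on a scale of 0 (weakest) to 100 (strongest) among 11891 shared autosomal regions, with DE as squares and WT as circles and another gene in parentheses where its start lies within 1 kb. Meis1 at start and Mecom +0.8 kb stand near 100 in all 4 libraries, Hlf at start is lower in DE (43.5 and 52.8) than in WT (81.9 and 89.1), and Sox4 at start is higher in DE (76.3 and 89.2) than in WT (40.3 and 42.6).

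In WT cMoPs, H3K4me3 was almost without calls at the 5 loci where H3K4me2 was frequent. It had 2 intervals there, both within 1 kb of the start of Mynn, a zinc finger gene upstream of Mecom. They lie at chr3:30602060-30602399, with a −log10 q of 34.02 and a place of 0.747%, and at chr3:30602555-30603027, with 8.09 and 31.7%. Both fall in 1 H3K4me2 region (chr3:30602007-30603037), 92.2 kb from Mecom, called at 32.1 and 16.9985 in DE, and 42.1 and 51.7 in WT. The share of member regions with H3K4me3 was therefore 1 of 55 (1.82%, 95% Wilson interval 0.322 to 9.61%), against 14.5% of all autosomal regions, and 0 within 50 kb of the genes. The H3K4me3 list is the shortest and of another batch, so a region without a call may still carry the mark, and with 1 library there is no replicate check.

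H3K4me3 calls became more frequent with stronger H3K4me2. Among 5927 shared regions that hold a RefSeq start, 48.3% overlapped an H3K4me3 peak, and among those with a mean standing of 90 to 100, 75.2% did. The Meis1 start was without H3K4me3. Of 41 start-holding regions whose lowest standing over the 4 libraries was at least the lowest of the Meis1 start (98.1), itself included, 29 carried H3K4me3 and 12 did not (29.3%, 95% Wilson interval 17.6 to 44.5%). Of 46 regions with no start whose lowest standing was at least the lowest of Mecom +835 (97.6), 35 carried H3K4me3 (76.1%) and 11, with the Mecom region, did not, against 29.6% with H3K4me3 among all 5964 shared regions with no start. Wilson intervals cover counting error only.

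Other stem and progenitor genes were counted to place the 5 members. Of 36 such genes, 25 and 28 had an H3K4me2 interval in the gene or within 1 kb in DE, and 28 and 28 in WT, with 25 in all 4 lists, against 45.5% of all genes. The 6 without any included Gfi1b, Ly6a, Thy1, Slamf1 and Tek. H3K4me3 was called at 7 of the 36, namely Runx1, Lmo2, Lyl1, Fli1, Myb, Bcl11a and Cd93, against 0 of 5 members and 24.1% of all genes. Lyl1, a bHLH factor, had a best place of 0.892% and 1.44% in DE, and 0.133% and 1.04% in WT, like Meis1, but also an H3K4me3 interval at 3.97%. No gene of the list had calls in a whole genotype and none in the other. Of all 20665 genes, 757 had this pattern for WT and 40 for DE, so it is rare in general. Both DE interval counts lay below both WT counts at 24 of the 36 genes, against 45.2% of all genes. Neighbours share windows, since Hoxa7, Hoxa9 and Hoxa10 each had 17 and 14 intervals in DE, and 19 and 18 in WT, so the genes of the list are not separate measurements.

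**Figure D5:**
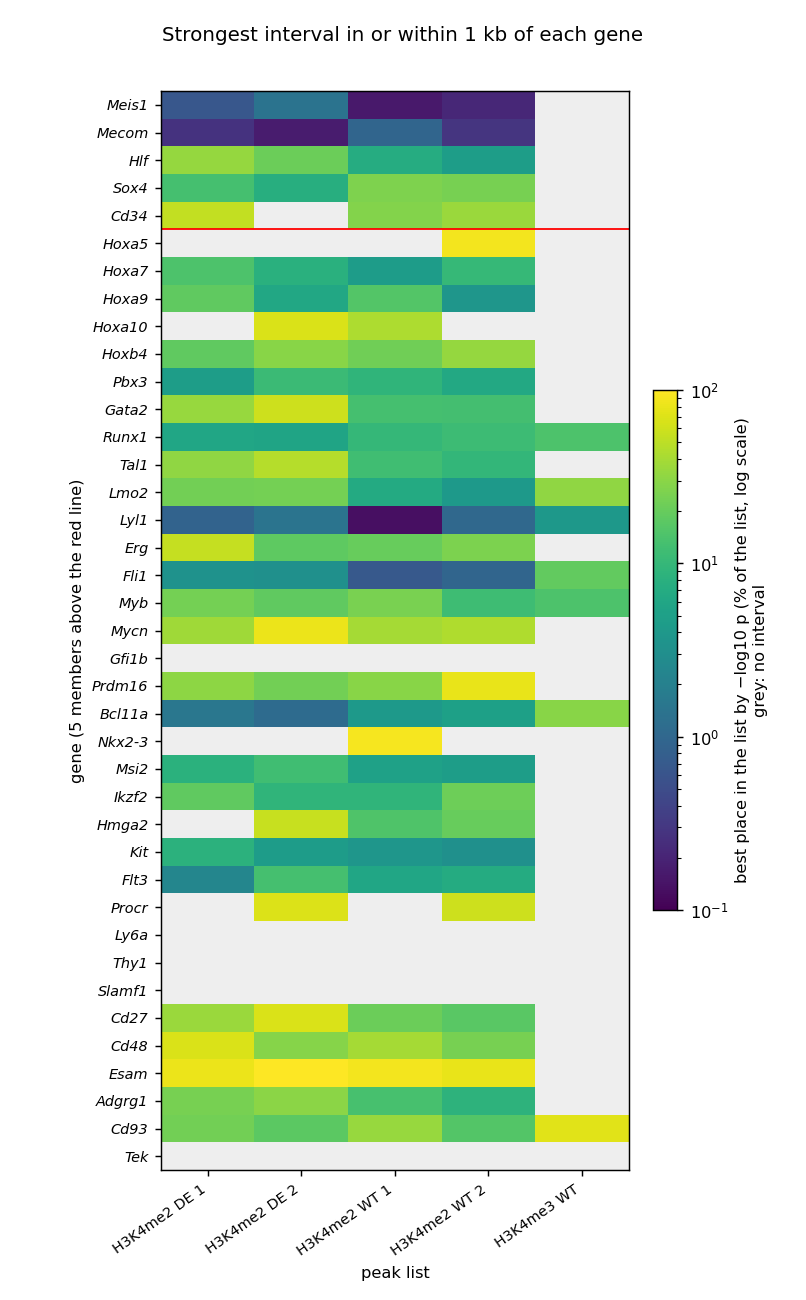
Best place, in % of the list by −log10 p on a log scale (dark is strong, grey is no interval), of the intervals in or within 1 kb of the 5 members, above the red line, and of stem and progenitor genes from the list of 36 below it (not every gene of the list is drawn), with DE columns left of WT. Meis1 and Mecom are dark in all H3K4me2 columns, and the H3K4me3 column is grey for all 5 members and filled for 7 of the 36 genes.

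Close relatives and partners of the members were mixed. Of 14 such genes, 10 and 10 were called in DE and 11 and 11 in WT, and 10 in all 4 lists, against 45.5% of all genes. Those in all 4 lists include the MEIS partners Pbx2, Pbx3 and Hoxa9, the PAR bZIP genes Tef and Dbp, and Sox12. Meis3 and Sox11 had no interval in any list and Meis2 had one in WT replicate 1 alone. Only Pbx2 carried H3K4me3, against 24.1% of all genes. The best place of Prdm16, the paralogue of Mecom, was 31.0% and 23.1% in DE, and 29.2% and 80.1% in WT, against 0.273% and 0.170% in DE, and 0.940% and 0.291% in WT for Mecom.

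The genes most like Meis1, Hlf, Sox4 and Cd34 were found from the best places in the 5 lists, as the root mean squared difference of log10 places. For Meis1 they were Gm13287 (0.205) and Gm13288 (0.231), for Hlf Mettl5 (0.0754) and Mnd1 (0.0920), and for Sox4 Trp53i11 (0.0412) and Gcat (0.0723). For Cd34 they were Tha1 (0.0184) and Specc1l (0.0188), which like Cd34 had no interval in DE replicate 2. All of these genes lacked H3K4me3, and a member's own places were used to choose them.

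At Mecom the region just inside the 100 kb limit is that of the Mynn start at 92.2 kb, and the nearest one outside, 107.3 kb from the gene, was called in DE alone, at 4.73 and 4.55. At Cd34 the farthest inside was at 94.7 kb, called in WT replicate 1 alone at 4.91, and the nearest outside at 169.7 kb was called in WT alone, at 10.1 and 19.98. At Sox4 the farthest inside, at 64.5 kb, and the nearest outside, at 105.9 kb, were called in WT replicate 2 alone, at 1.47 and 10.2. At Hlf the farthest inside was the region at the Mmd start, 86.97 kb from the gene, and the nearest outside, at 247.1 kb, was called in WT replicate 2 alone among the H3K4me2 lists, at 9.01. At Meis1 the farthest inside lay 7.55 kb from the gene and the nearest outside 548.1 kb.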

How the data were processed

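CUTAC libraries of sorted mouse cMoPs were read as paired ends of 150 bp, per the labels' protocols. Of 7 samples, 5 have the peak lists used here; the H3K4me3 library of MDPs and the IgG library were not analysed here. MACS2 (version 2.2.9.1), Bowtie2, Trimmomatic, Picard, SAMtools and the build mm10 come from the submitters' processing notes; for their settings and any control, the sources used here give nothing. Peaks were called per library. Each deposited entry holds the authors' score (10 times the −log10 q, as a whole number), the fold over the local background as a ratio, the −log10 of p and q, and the summit offset.

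Entries sharing an interval were counted once, by the strongest p. Intervals of the 4 H3K4me2 lists that touch or overlap were merged into autosomal regions, called in a list from 1 bp of overlap. Start sites and promoter windows came from RefSeq tables of GRCm38.p6, in which all 5 members matched. Genotypes were compared over libraries with exact two-sided permutation tests over 6 assignments; single genes and regions are described without a test. Scripts ran in Python 3.11.15 with pandas 2.3.3, NumPy 2.4.6, SciPy 1.17.1 and Matplotlib 3.10.9. The steps were tested on simulated strengths over 39395 regions, and for DE against WT found 200 of 200 planted losses, with 0 calls among the 39195 other regions. The simulation kept all other regions in all 4 lists, so that outcome was fixed if the code was right. It gives no error rate for the real lists. Named were the regions called in all 4 lists in or within 1 kb of a gene, those with H3K4me3, those called in both libraries of 1 genotype alone, and the 2 nearest genes in profile for each member. The genes nearest to Mecom, and some genes of the lists by name, are not reported here. Other regions, and Cx3cr1, S100a8, Batf3, Lyl1, Prdm16 and further list genes named, were chosen after their values were seen. The members and lists were chosen with earlier results of these data known. Alternatives were lists of equal length, a −log10 q of at least 5, presence by 50% cover, merging within 500 bp, windows of 10 and 50 kb, every summit entry, each replicate left out and the replicate block. Leaving out regions within 1 kb of another gene's start, and the standing of the start regions of Meis1, Hlf and Sox4, of Mecom +835 and of Sox4 −4192, were added after seeing the data.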

Additional observations from a re-analysis of the deposited data

How the results depend on the processing

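Files without counts limit these results to positions and ranks within lists, and 2 libraries a genotype cannot give an exact p under 0.333. The ratio of intervals was below 1 in 12 of 13 settings, and 1.09 with lists of equal length. Presence by 50% cover, merging within 500 bp and the replicate block leave interval counts unchanged, so their ratio of 0.713 was fixed. Of the settings, only equal length removes the difference in list length. Without single replicates the ratio of intervals ran from 0.653 to 0.779. The ratio of covered bases ran from 0.937 (without WT replicate 1) to 1.19 when one was left out. The difference in median standing was −1.55 with presence by 50% cover, and ran from −5.39 (without DE replicate 2) to 25.4 without single replicates. Regions called in all 4 lists numbered 12 at a −log10 q of at least 5 and 11 with 50% cover, and 20 to 28 were in all 3 remaining lists without single replicates. Regions called in both WT libraries alone numbered 0 with equal lists, 7 at a −log10 q of at least 5 and 0 with merging within 500 bp, and 3 to 10 without single replicates, when a genotype can be 1 library. Those called in both DE libraries alone numbered 2 with equal lists and 3 with 50% cover, and likewise 0 to 4 without single replicates. The share with H3K4me3 was 0 within 10 kb, 0 within 50 kb and 0 without regions near another gene's start. Each of these settings leaves out the region at the Mynn start, the only member region with H3K4me3. The cause of the other changes was not tested. With lists of equal length the ratio was 1.19 at Meis1, 1.18 at Mecom, 1.22 at Hlf and 1 at Sox4. At Cd34 it stayed below 1, at 0.577. Standing differences at single regions kept their sign in every setting that gave a value, from −56.5 to −30.9 at the Hlf start, 31.4 to 51.9 at the Sox4 start (none with 50% cover) and −31.6 to −7.47 at Sox4 −4192. The ranking is the same with windows of 10 and 50 kb and without regions near another gene's start. The values of those settings were therefore fixed. At these regions both DE standings already lay on one side of both WT standings. Leaving out a replicate could therefore change the sign only through the new ranking.

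The differences in standing DE replicate 1 minus DE replicate 2 and WT replicate 1 minus WT replicate 2 correlated at −0.0086 over 11891 regions. No replicate effect shared by the genotypes was thus seen in the ranks. This cannot show whether the libraries were handled in pairs. With the replicate block (sign flips over 2 pairs, smallest p 0.5) the ratio of intervals was 0.713 (exact p = 0.5), that of covered bases 1.06 (exact p = 1) and the difference in standing 12.8 (exact p = 0.5); neither test is large enough to reach significance.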
